A study of Mus musculus with 6 samples.

Results

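The Hox genes are the homeobox transcription factors of the Hoxa, Hoxb, Hoxc and Hoxd clusters. A member was any gene whose symbol is Hoxa, Hoxb, Hoxc or Hoxd followed by a number, read by at least 1 probe set that carries no other symbol. This gave 33 of the 18194 genes named on the array and 48 of its 45101 probe sets. The samples were primary mouse myoblasts, the precursor cells of skeletal muscle, on Affymetrix GeneChip arrays of the mouse genome. There were 3 control arrays and 3 arrays of cells infected with a lentivirus that carries a short hairpin RNA (shRNA) that targets LncMyoD, a non-coding transcript made near Myod1. The shRNA was cloned in the vector Tet-pLKO-puro, whose hairpin is switched on by a tetracycline analogue. No dose or duration of induction is given in the labels, which also do not say what the control cells received or whether the cells stood in growth or differentiation medium. Every sample is labelled 21 days old, and replicates are called biological, with nothing that ties them to separate animals or dishes, so a p-value reflects array-to-array spread that may be technical.

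Hox proteins bind DNA through a homeodomain and give cells a position along the body axis and along the limb. Within a cluster, genes with low paralog numbers lie at one end and are used toward the head, and those with high numbers lie at the other and are used toward the tail and the tip of the limb. Paralogs are genes with the same number in different clusters, which share an ancestor and much of their homeodomain. Hox proteins bind many sites together with the cofactors of the Pbx, Meis and Pknox families. Cells grown from adult tissue, myoblasts and fibroblasts among them, are known to keep a Hox pattern of the region they came from.

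Signals were read as log2 values, so a difference of 1 is a doubling. A signal was called low, and left out of the test, where its mean over the 6 arrays was below 6.50, the level under which the dimmest 40% of probe sets lie. As a second yardstick, 123 probe sets for olfactory receptors, vomeronasal receptors and keratin-associated proteins, genes that belong to other tissues, had a median of 5.20 and a 95th percentile of 7.36, and 14 of them lay above 6.50. Passing 6.50 is therefore no proof of expression, and a low signal is no proof of its absence. Of the 33 Hox genes, 20 passed the filter on at least 1 probe set, all 20 of them in both groups, and 16 of these lay above 7.36. In controls Hoxc6 passed only narrowly, with a mean of 6.52 there against 6.94 in shRNA samples. A gene is described by its brightest tested probe set, with those ending in _x_at used last because they can bind related transcripts. Because each probe set binds with its own strength, levels are set against these 2 yardsticks and not ranked between genes.

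The myoblasts gave signal for Hox genes of all 4 clusters, and the part of each cluster that did so differed. In the Hoxa cluster 7 of 9 genes passed the filter, from Hoxa3 to Hoxa11, with the ends Hoxa2 and Hoxa13 low. In the Hoxb cluster 6 of 9 passed, namely Hoxb2 to Hoxb6 and Hoxb9, while Hoxb1, Hoxb7 and Hoxb13 were low. In the Hoxc cluster 3 of 7 passed (Hoxc4, Hoxc6 and Hoxc10) and Hoxc5, Hoxc8, Hoxc9 and Hoxc13 were low. In the Hoxd cluster Hoxd8 and Hoxd9 were bright, Hoxd12 and Hoxd13 passed narrowly, and Hoxd1, Hoxd3, Hoxd10 and Hoxd11 were low. A mean signal of 10 or more was found for 8 genes, which were Hoxa7, Hoxa9, Hoxa10, Hoxa11, Hoxb3, Hoxb9, Hoxd8 and Hoxd9. The level of 10 is a round number and neither yardstick. It describes how bright the probe sets are and does not make these 8 the most expressed Hox genes. Hoxc6, Hoxc10, Hoxd12 and Hoxd13 passed the filter but stayed at or under 7.36, so they are weak signals that the yardstick genes also reach.

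The 13 low genes were read by 15 probe sets with means of 4.86 to 6.43. Hoxa13 stood at 5.76 in both groups. Hoxd10, which with Hoxd11 patterns the limb, had means of 5.30 without and 5.42 with the shRNA, and Hoxd11 6.27 and 6.25. Just outside the filter lay Hoxc13 with a mean of 6.43, and just inside it Hoxd13 with 6.65. A second probe set of Hoxd13 was low, with a mean of 4.61.

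The promoter windows of 5 genes are shown because these are the genes, of the 9 that rose in the shRNA samples, for which a window was found. Each is the 250 bases before the RefSeq transcription start, in assembly GRCm38.p6, on the gene's strand. Capitals mark matches to CANNTG, the E-box that factors such as MyoD can bind, searched on both strands.
Hoxd8, chr2:74704365-74704614, + strand: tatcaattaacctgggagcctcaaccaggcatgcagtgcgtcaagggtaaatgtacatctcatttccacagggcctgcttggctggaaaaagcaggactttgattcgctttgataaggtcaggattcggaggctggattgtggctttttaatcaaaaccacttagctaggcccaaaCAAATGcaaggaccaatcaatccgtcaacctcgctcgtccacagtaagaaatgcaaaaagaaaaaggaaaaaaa
Hoxd9, chr2:74697513-74697762, + strand: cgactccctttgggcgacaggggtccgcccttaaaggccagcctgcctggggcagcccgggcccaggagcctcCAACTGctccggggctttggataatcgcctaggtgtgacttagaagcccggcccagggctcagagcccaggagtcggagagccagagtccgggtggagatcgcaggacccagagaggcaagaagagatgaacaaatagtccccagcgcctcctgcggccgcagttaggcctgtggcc
Hoxa9, chr6:52227371-52227620, - strand: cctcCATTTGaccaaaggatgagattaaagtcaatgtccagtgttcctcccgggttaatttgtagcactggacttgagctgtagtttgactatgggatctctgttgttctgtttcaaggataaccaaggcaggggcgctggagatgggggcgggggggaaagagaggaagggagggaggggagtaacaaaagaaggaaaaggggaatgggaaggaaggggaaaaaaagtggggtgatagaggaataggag
Hoxb4, chr11:96318017-96318266, + strand: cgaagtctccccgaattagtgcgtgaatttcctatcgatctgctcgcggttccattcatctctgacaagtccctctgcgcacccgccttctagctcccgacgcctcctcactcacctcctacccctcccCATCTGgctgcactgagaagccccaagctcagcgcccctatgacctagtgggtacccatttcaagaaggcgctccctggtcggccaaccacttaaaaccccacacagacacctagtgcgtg
Hoxc4, chr15:103034145-103034394, + strand: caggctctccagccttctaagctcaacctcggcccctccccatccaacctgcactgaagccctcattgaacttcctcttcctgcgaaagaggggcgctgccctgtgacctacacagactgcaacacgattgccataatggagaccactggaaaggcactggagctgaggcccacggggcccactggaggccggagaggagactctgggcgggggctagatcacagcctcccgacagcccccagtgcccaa
The windows of Hoxd8, Hoxd9, Hoxa9 and Hoxb4 hold 1 such match each and that of Hoxc4 holds 0. At least 1 match is found in 66.2% of all 32851 windows of this length and in 15 of the 21 windows found for 19 Hox members, so 4 of 5 is no result about the genes that rose. TGATNNAT, a motif bound by Pbx and Hox proteins together, was searched in the same way, may overlap an E-box by its first letters, and has no match in these 5. It is found in 3 of the 21 Hox windows, at Hoxa2, Hoxb1 and Hoxd11, and in 7.68% of all windows. The dinucleotide CG occurs 6 times in the Hoxd8 window, 13 in that of Hoxd9, 3 in that of Hoxa9, 14 in that of Hoxb4 and 8 in that of Hoxc4, against a median of 6 over all windows and 13 over the Hox windows. A match describes the letters and shows no binding.

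The comparison asks which Hox genes differ in level when LncMyoD is targeted. In limma's test with Benjamini-Hochberg adjustment over all 27022 tested probe sets, 9 of the 20 genes rose in the shRNA samples, 3 fell and 8 did not pass a threshold of 0.05. Hoxa4, Hoxa9, Hoxb2, Hoxb4, Hoxb9, Hoxc4, Hoxc6, Hoxd8 and Hoxd9 rose, and Hoxa3, Hoxb3 and Hoxb5 fell. That is 60% of the Hox genes, against 58.5% of all 12408 tested genes. By direction, 45% of the Hox genes rose against 35.7% of all genes, and 15% fell against 22.8%. When the arrays were centred on their medians, 29.2% of all genes rose and 29.5% fell, while 9 Hox genes rose and 4 fell. The Hox genes were thus called about as often as other genes on this array, and their number moving is not a result particular to them. Their changes were 1.13-fold to 1.57-fold, and 0 of 20 passed the threshold at 2-fold or more (0 at that size also at an unadjusted p under 0.05), against 3.77% of all genes. The median difference was 0.12 over the 20 Hox genes and 0.046 over all tested genes.

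**Figure D1:**
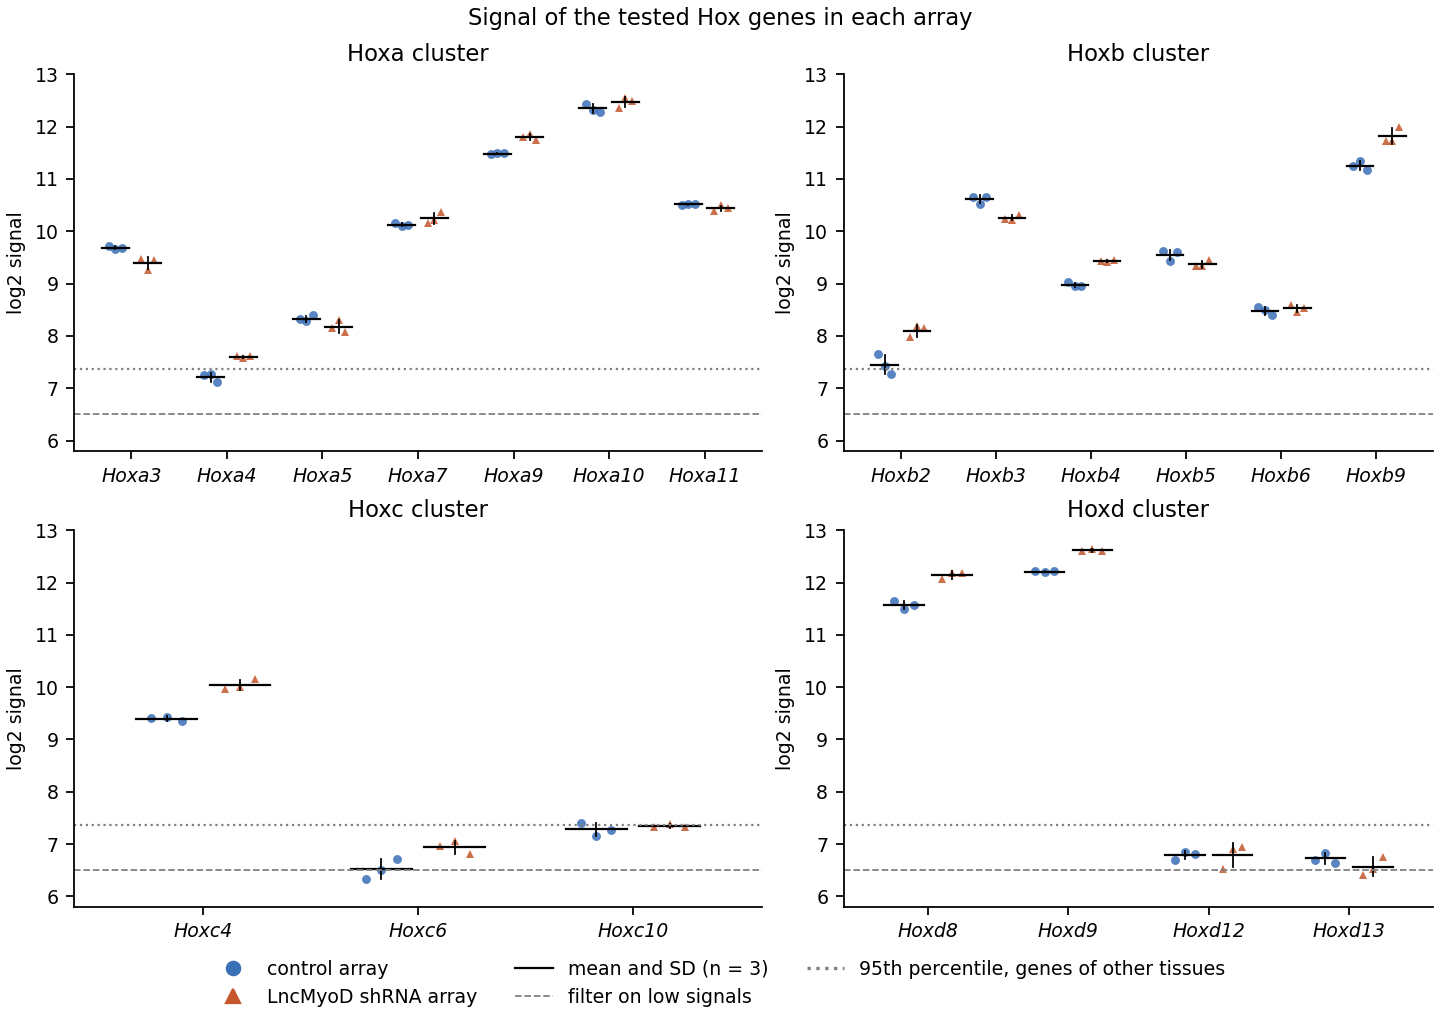
Log2 signal of the 20 tested Hox genes in each array, by cluster, with control arrays as circles and LncMyoD shRNA arrays as triangles. Horizontal bars are group means and vertical bars SDs (n = 3); the dashed line is the filter at 6.50 and the dotted line the 95th percentile of the yardstick genes, 7.36. Hoxc6, Hoxc10, Hoxd12 and Hoxd13 lie between the lines on average, and the shRNA arrays of Hoxc4, Hoxd8 and Hoxd9 all lie above their control arrays.

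The calls are also given by paralog number, an arrangement chosen after the values were seen and not tested; over all genes 35.7% rose and 22.8% fell. All 3 tested genes of paralog group 4 rose, as did all 3 tested genes of group 9, while both tested genes of group 3 fell. Group 5 had 1 gene that fell and 1 that did not pass, and group 6 had 1 that rose (Hoxc6) and 1 that did not pass (Hoxb6). Groups 2, 7 and 8 had 1 tested gene each, of which Hoxb2 and Hoxd8 rose and Hoxa7 did not pass, and the 5 tested genes of groups 10 to 13 did not pass. Paralogs have related sequences, and whether a probe set also bound a paralog's transcript was not tested.

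**Figure D2:**
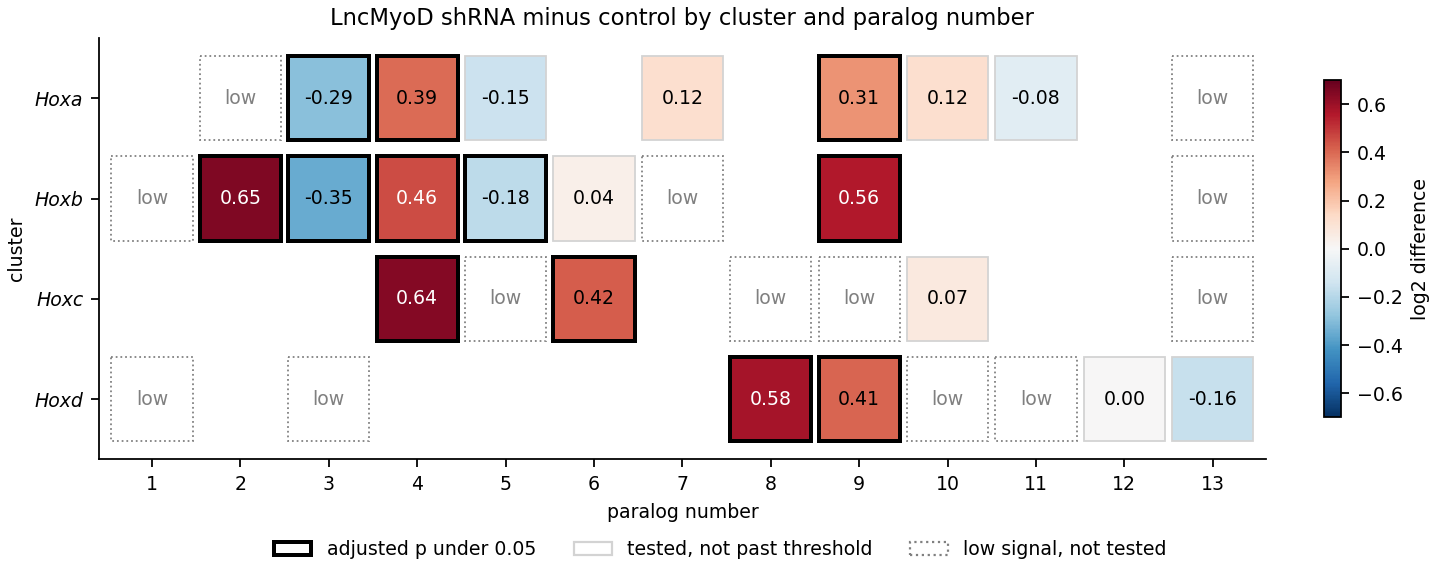
Difference in log2 signal, LncMyoD shRNA minus control, for each Hox gene, with clusters as rows and paralog numbers as columns. Thick frames mark limma adjusted p under 0.05 and dotted frames low signals. Red fills stand in the whole of columns 4 and 9 where tested (0.31 to 0.64), and blue in column 3 (-0.29 and -0.35).

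Genes of paralog group 9, with group 8, sit in the middle of the clusters and are used in the trunk and the upper limb. Hoxd9 read 12.21, 12.19 and 12.21 in the 3 control arrays and 12.61, 12.64 and 12.60 in the shRNA arrays. All shRNA arrays lay above all controls, a rise of 0.41 (SE 0.035) or 1.33-fold (limma adjusted p = 7.71e-07). Its neighbour Hoxd8 read 11.64, 11.49 and 11.56 in controls and 12.06, 12.18 and 12.19 in shRNA samples. Here too the groups did not overlap, and the rise was 0.58 (SE 0.050) or 1.50-fold (limma adjusted p = 7.40e-07). A second probe set of Hoxd8 also rose, by 0.42 (SE 0.051). Hoxb9 went from 11.25, 11.34 and 11.17 to 11.73, 11.72 and 11.99, again without overlap, a rise of 0.56 (SE 0.069) or 1.48-fold (limma adjusted p = 1.76e-05). Replicate 3 was the highest shRNA array, and without it the rise was 0.47. Hoxa9, also known as a driver of leukaemia and as a regulator of satellite cells in aged muscle, read 11.47, 11.49 and 11.50 in controls. Its shRNA arrays read 11.79, 11.86 and 11.74, all higher, a rise of 0.31 (SE 0.043) or 1.24-fold (limma adjusted p = 4.66e-05). The second probe set of Hoxa9, dimmer at 8.38 in controls and 8.79 in shRNA samples, rose by 0.40 (SE 0.094).

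Paralog group 4 is used in the hindbrain and neck region of the embryo, and Hoxb4 and Hoxc4 are also known from blood stem cells. Hoxc4 read 9.42, 9.43 and 9.34 in the control arrays and 9.97, 10.01 and 10.15 in the shRNA arrays. The groups were well apart, and the rise of 0.64 (SE 0.066) amounted to 1.56-fold (limma adjusted p = 3.64e-06). Hoxb4 went from 9.02, 8.95 and 8.95 to 9.43, 9.42 and 9.44, a rise of 0.46 (SE 0.066) or 1.37-fold (limma adjusted p = 6.71e-05). A low probe set of Hoxb4, left out of the test, had means of 6.25 and 6.53. Hoxa4 stood near the yardstick level, at 7.25, 7.27 and 7.11 in controls and 7.62, 7.58 and 7.62 in shRNA samples. It rose by 0.39 (SE 0.10) or 1.31-fold (limma adjusted p = 0.00484), and its other probe set, an _x_at, by 0.34 (SE 0.12). None of the arrays overlapped between groups in any of these 3 genes.

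Hoxb2, a factor of hindbrain segments, had the largest difference among the probe sets that stand for a Hox gene. It read 7.65, 7.42 and 7.28 in controls and 7.97, 8.19 and 8.14 in shRNA samples. The control arrays were spread from 7.28 to 7.65 without reaching the shRNA arrays, and the rise was 0.65 (SE 0.11) or 1.57-fold (limma adjusted p = 0.000337). Hoxc6, used in the thorax, was a weak signal with disagreeing sizes. On the probe set that stands for it, controls read 6.33, 6.51 and 6.72 and shRNA arrays 6.96, 7.06 and 6.81, a rise of 0.42 (SE 0.13, limma adjusted p = 0.0157). Without control 1 that rise was 0.33 (limma adjusted p = 0.0551) and without shRNA array 2 it was 0.37 (0.0631). The call therefore rests on those arrays. Over all settings the limma adjusted p of Hoxc6 ran from 3.71e-05 to 0.0631. The low end came from averaging in an _x_at probe set that passed the filter through the shRNA arrays alone, so it adds no support. An _x_at probe set of Hoxc6 rose by 1.12 (SE 0.12) from a control mean of 6.17, below the filter, to 7.29, and the last of its probe sets was low at 5.74 and 5.78.

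Group 3 and Hoxb5 went the other way. Hoxb3, used in the hindbrain and throat region like Hoxa3, read 10.65, 10.52 and 10.66 in controls and 10.24, 10.22 and 10.32 in shRNA samples. It fell by 0.35 (SE 0.057), with no overlap (limma adjusted p = 0.000178), but its second probe set stood at 9.48 and 9.47, a difference of -0.016 (SE 0.070, limma adjusted p = 0.871). Averaging both probe sets gave -0.18 (limma adjusted p = 0.00596). Hoxa3 fell from 9.72, 9.66 and 9.68 to 9.46, 9.26 and 9.46, by 0.29 (SE 0.070, limma adjusted p = 0.00352), with no overlap of the groups. Its second tested probe set fell by 0.36 (SE 0.11), and its 2 low probe sets differed by -0.28 and -0.21. Hoxb5 read 9.62, 9.44 and 9.60 in controls and 9.33, 9.33 and 9.44 in shRNA samples, where the highest shRNA array reached above the lowest control. Its fall of 0.18 (SE 0.071, limma adjusted p = 0.0461) was lost without control 1 (-0.15, 0.110), control 3 (-0.16, 0.124), shRNA array 1 (-0.16, 0.133) or shRNA array 2 (-0.16, 0.133). It was also lost with no filter (limma adjusted p = 0.0631), without a variance trend (0.0569) and with a replicate block (0.0551), and its adjusted p over all settings ran from 0.00946 to 0.133.

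Of the 8 genes that did not pass, Hoxa10 and Hoxa11 are known for patterning the limb and the uterus. Hoxa10 read 12.44, 12.32 and 12.28 in controls and 12.36, 12.54 and 12.50 in shRNA samples, with overlap. The difference was 0.12 (95% interval 0.0041 to 0.23, limma adjusted p = 0.0753). Its call depended on 1 array: without control 1 it was past the threshold at 0.16, and without shRNA array 1 at 0.17. Quantile normalization gave 0.11, also past it (limma adjusted p = 0.0368), and the adjusted p over all settings ran from 0.0131 to 0.353. A low probe set of Hoxa10, left out of the test, had means of 5.68 in controls and 5.66 in shRNA samples. Hoxa11 had a control mean of 10.52 ± 0.0081 and an shRNA mean of 10.44 ± 0.051 (SD, n = 3), and its arrays did not overlap. The difference of -0.079 (95% interval -0.19 to 0.030) did not pass, but did with the arrays centred (-0.14, limma adjusted p = 0.0269) or quantile normalized (-0.13, 0.0315). Hoxa7 did not overlap either, at 10.13 ± 0.028 and 10.24 ± 0.11, with a difference of 0.12 (95% interval -0.015 to 0.25). Hoxa5 differed by -0.15 (95% interval -0.35 to 0.049, limma adjusted p = 0.189), whereas its _x_at probe set fell by 0.36 (SE 0.086, limma adjusted p = 0.00338). Averaging the probe sets gave -0.26 and a call (limma adjusted p = 0.00538). Hoxb6 (0.041), Hoxc10 (0.067), Hoxd12 (0.0027) and Hoxd13 (-0.16) had 95% intervals that hold 0, and the signs of Hoxb6 and Hoxd12 turned when the arrays were centred. In all, 13 of 20 Hox genes had groups that did not overlap, 10 higher and 3 lower, against 64.8% of all tested genes.

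**Figure D3:**
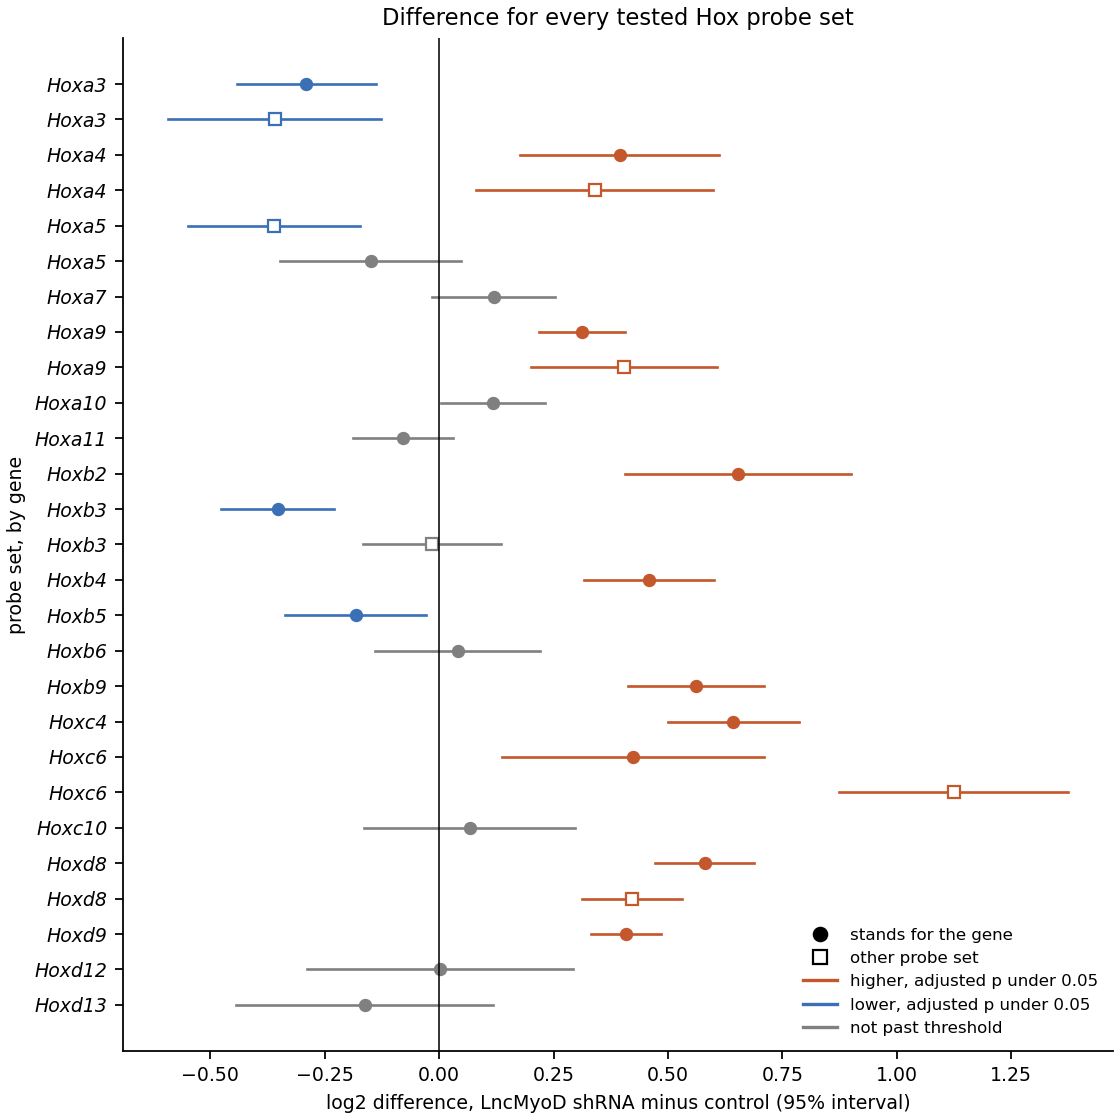
Difference in log2 signal for each of the 27 tested Hox probe sets, with 95% intervals from limma. Filled circles stand for the gene and open squares are its other probe sets, coloured by call. The open square of Hoxc6 at 1.12 lies far right of its circle at 0.42, and those of Hoxb3 and Hoxa5 differ in call from their circles.

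More than 1 probe set was tested for 7 of the genes. In Hoxa3, Hoxa4, Hoxa9 and Hoxd8 each tested probe set gave the same call, and in Hoxa5 and Hoxb3 they disagreed, with 0 called in opposite directions. The second tested probe set of Hoxc6 passed the filter through the shRNA arrays alone, where it is high, so its call adds no support to that of the first. The RefSeq span of Hoxa3 overlaps those of Hoxa4 and Hoxa5, and that of Hoxb3 overlaps Hoxb4, so a probe set named for one of them may read a transcript that also covers another. Hoxa4 rose while Hoxa3 fell, and Hoxb4 rose while Hoxb3 fell.

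Among the 13 low genes, a fit without the filter called Hoxc9 and Hoxc13 higher, against 8.47% of all genes left out as low. Hoxc13, known for its part in hair and nail, had means of 6.13 in controls and 6.72 in shRNA samples, 0.59 apart (limma adjusted p = 0.00346 with no filter). Hoxc9 had means of 5.56 and 5.97, 0.41 apart (limma adjusted p = 0.0319 with no filter). Both signals lie in the range of the yardstick genes, and whether they exceed background was not tested. The other 11 did not pass there.

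Neighbours of the clusters and transcripts from their antisense strand were followed as a list, of which 13 were tested. In limma's test 4 rose, 2 fell and 7 did not pass, so 46.2% were called against 58.5% of all genes. Hoxa11os, an RNA transcribed opposite to Hoxa11, rose by 0.38 (SE 0.066, limma adjusted p = 0.000295), from 9.51 ± 0.057 to 9.89 ± 0.084 (SD, n = 3), while Hoxa11 did not pass; the difference between the 2 was not tested. A second probe set of Hoxa11os was low, at 5.22 and 5.13. Hoxb5os, opposite to Hoxb5 and Hoxb6, rose by 0.21 (SE 0.051, limma adjusted p = 0.00388), from 11.59 to 11.80. The even-skipped homeobox genes at the ends of 2 clusters did not pass, with Evx1 at 7.83 and 7.89 and Evx2 at 7.02 and 6.75. Of the other flanking genes, Smug1, a DNA repair glycosylase, rose by 0.38 (SE 0.051) and Lnpk by 0.20 (SE 0.064), while Skap1 fell by 0.32 (SE 0.10) and Snx10 by 0.14 (SE 0.041).

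Hox cofactors were followed as a list, of which 9 genes were tested. In limma's test 4 rose and 1 fell, and 4 did not pass, so 55.6% were called, about the 58.5% of all genes; the median difference was 0.22 against 0.046 over all genes. Meis1, a homeobox partner of Hox proteins, read 7.80, 7.84 and 7.82 in controls and 8.77, 8.72 and 8.74 in shRNA samples. That is a rise of 0.93 (SE 0.081, limma adjusted p = 8.11e-07), or 1.90-fold, but a dimmer probe set stood at 6.68 and 6.87 and did not pass. Meis2 rose by 0.61 (SE 0.072), on 3 of its 4 tested probe sets, Meis3 by 0.36 (SE 0.085) and Pbx3 by 0.32 (SE 0.053), on both of its probe sets. Pknox2, a relative of Meis, fell from 12.30, 12.23 and 12.23 to 11.29, 11.31 and 11.19, by 0.99 (SE 0.045, limma adjusted p = 3.35e-09). Without probe sets ending in _x_at, _s_at or _a_at, 0 of 7 cofactor genes rose and 1 fell, since all 4 increases were read by probe sets of those kinds. Pbx2, Pbx4, Pbxip1 and Pknox1 did not pass on the probe sets that stand for them, although the 2 others of Pbx2 rose, by 0.15 and 0.21.

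**Figure D4:**
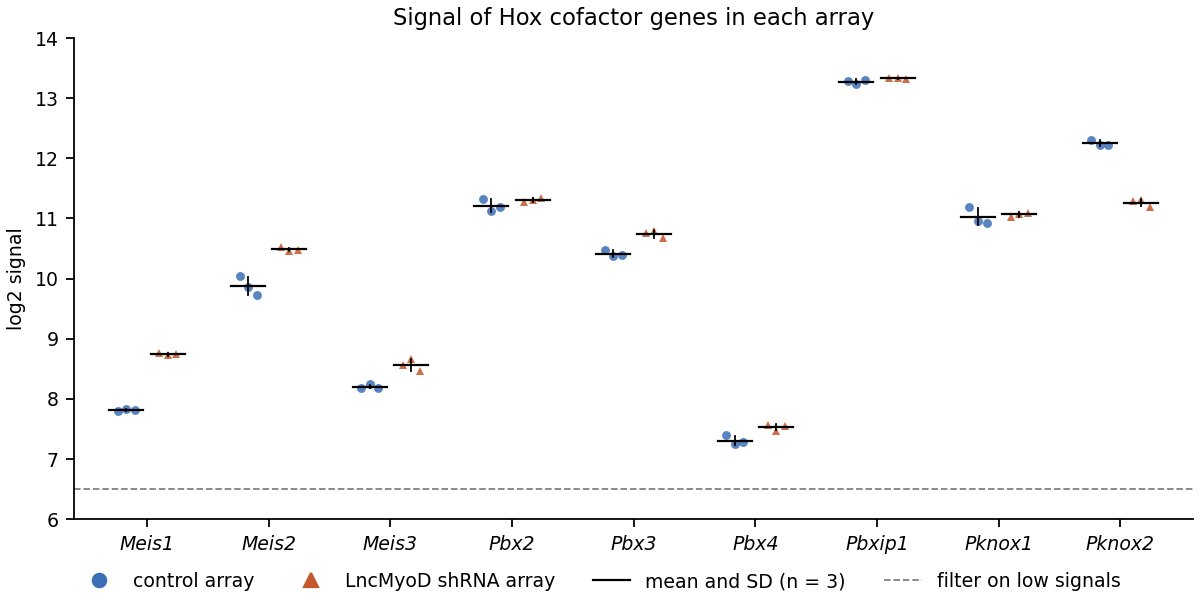
Log2 signal of the 9 tested Hox cofactor genes in each array, with control arrays as circles and LncMyoD shRNA arrays as triangles; bars are group means and SDs (n = 3). The Meis1 shRNA arrays lie near 8.74 against 7.82 in controls, and those of Pknox2 near 11.26 against 12.25.

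Genes known to control Hox clusters (Polycomb and trithorax proteins, retinoic acid receptors, Cdx factors and others) moved both ways: of 26 tested, 7 rose and 5 fell while 14 did not pass (median 0.043). That is 46.2% called in limma's test, against 58.5% of all genes. With the arrays centred 6 rose and 7 fell, and those that fell numbered 2 with probe sets averaged and 3 without shRNA array 3. Of the core of Polycomb complex PRC2, which silences Hox genes, Ezh2 rose by 0.70 (SE 0.061) and Eed by 0.52 (SE 0.049), whereas Suz12 fell by 0.53 (SE 0.050). Cbx2 (0.50), Pcgf2 (0.30), Kmt2a (0.16), Rarb (0.45) and Rarg (0.51) also rose, and Ring1 (-0.44), Men1 (-0.21), Yy1 (-0.20) and Kdm6a (-0.13) fell. Since averaging left 2 falls in place of 5, a fall named here, that of Suz12 included, may rest on 1 probe set. Rarb was a weak signal, at 6.64 in controls and 7.09 in shRNA samples, under the yardstick level of 7.36. Cdx1, Cdx2 and Cdx4, activators of Hox genes in the embryo, were low.

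Other genes of limb position gave 6 that rose, 4 that fell and 6 that did not pass of 16 tested in limma's test, or 62.5% called, near the 58.5% of all genes. Tbx5, Tbx4 and Pitx1, which mark fore limb and hind limb, were all low, with brightest probe set means of 5.39 to 6.07 in either group. Msx1 rose by 1.08 (SE 0.11), though its other probe set stood at 7.08 and 6.99, and Msx2 (0.62), En1 (0.48), Shox2 (0.38), Tbx3 (0.28) and Prrx2 (0.24) rose. Tbx18 fell by 0.65 (SE 0.044), from 12.33 ± 0.055, with Emx2 (-0.41), Tbx15 (-0.35) and Lbx1 (-0.25), a gene of migrating limb muscle precursors.

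All 10 myoblast markers passed the filter. In limma's test 4 rose, 2 fell and 4 did not pass, so 60% were called, near the 58.5% of all genes. Pax7, a factor of satellite cells, rose by 0.66 (SE 0.051) and Myf5 by 0.62 (SE 0.11), against 0.65 for Hoxb2, and Cdh15 (0.40) and Vcam1 (0.23) also rose. Myog, a factor of differentiation, fell by 0.13 (SE 0.039) and Ncam1 by 0.11 (SE 0.035), and Myod1 did not pass, at 13.80 and 13.82. The mean log2 signal of the 10 markers ranged from 12.31 to 12.42 in controls and from 12.49 to 12.57 in shRNA samples. Low members numbered 7 of 11 for fibroblasts, 7 of 7 for endothelium, 4 of 7 for leukocytes, 2 of 4 for glia and neurons and 5 of 5 for adipocytes, but 1 of 6 for pericytes and smooth muscle. The mean signal of that last list was 7.55 to 7.66 in controls and 7.63 to 7.75 in shRNA samples, and its brightest member, Notch3, rose from 10.40 to 10.82, by 0.41 (SE 0.055, limma adjusted p = 3.28e-05). Tubb3 of the neuronal list fell by 0.56 (SE 0.10), and Cd68 of the leukocyte list, above the filter in the shRNA group alone, rose by 0.33 (SE 0.12). The fibroblast mean was 6.97 to 6.99 in controls and 6.95 to 7.07 in shRNA samples. Dcn, Lum, Thy1, Dpp4, Pi16, Twist2 and Postn were low. Tcf4 (control mean 13.22, shRNA mean 13.27) and Col3a1 (10.85 and 10.34) were bright. The symbol Tcf4 names an E protein, a partner of MyoD, and not Tcf7l2, the fibroblast gene also called TCF4. Its signal is therefore no sign of fibroblasts, although the list's count of 11 and its mean include it. Col1a1 (7.18 and 6.76) and Pdgfra (6.63 and 7.51) lay nearer the filter. Of the low members, limma's fit without the filter called Twist2 higher (5.39 and 6.28) and Postn lower (5.76 and 5.07). Pdgfra rose by 0.89 (SE 0.12), Col1a1 fell by 0.42 (SE 0.15) and Col3a1 by 0.51 (SE 0.067). The signal toward the 3 prime end over the 5 prime end, a sign of RNA integrity, was higher in shRNA arrays for actin (0.55 against 0.51 on the log2 scale) and GAPDH (0.23 against 0.14), each with exact permutation p = 0.1, the smallest that 20 assignments give. Their part in the Hox differences was not tested. In bulk RNA, a change in the share of cells that use a gene and a change per cell cannot be told apart.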

How the data were processed

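The deposited table holds 1 log2 signal per probe set and array, normalized by the authors. The first control array had a median of 7.23. The range over the 6 columns, 4.48 to 14.6, shows the scale. PLIER and MAS5 are named in the submitters' processing notes without roles; versions, background correction and an offset, if any, are not stated there. Detection calls and scanner files were not used here. An array has no read depth, and 3 arrays per group limit the precision. Columns without a sample: 0. GEO's platform annotation named genes: 34958 probe sets had 1 symbol, 932 several (3 with a Hox symbol, not used) and 9211 none.

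After 64 Affymetrix controls, the dimmest 40% (18015 probe sets) were left out. The rest were tested with limma 3.58.1 in R 4.3.3 (lmFit, eBayes with trend, no covariates). SE and 95% intervals are limma's. Genes named are all members, and listed genes past the threshold; other genes named were chosen after their values were seen. Members and lists were chosen with earlier results of these data known. The fit was tested on simulated data. Promoters are RefSeq's (GRCm38.p6), found for 12 of the 20 tested genes.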

Additional observations from a re-analysis of the deposited data

How the results depend on the processing

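Of 20 tested Hox genes, 9 rose and 3 fell as reported. The counts stayed within 1.5 times of this under each alternative, at 6 to 11 higher and 2 to 4 lower. The ends of the first range are not counts of the same 20 genes. The 6 is of 14 genes tested when the dimmest 60% of probe sets were left out. The 11 is of 33 tested with no filter, which adds the low genes Hoxc9 and Hoxc13. When 1 array was left out, 8 to 10 rose and 2 to 3 fell. Moved counts were those of cofactors that rose (4, but 0 without _x_at, _s_at and _a_at probe sets) and of regulators that fell (5, but 2 with probe sets averaged, and 3 to 5 when 1 array was left out, with 3 without shRNA array 3). Cofactors that rose numbered 4 to 6 when 1 array was left out.

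Signs of single Hox genes turned 7 times, never past the threshold. Hoxb6 stood at -0.023 with arrays centred, -0.013 with quantile normalization and between -7.38e-05 (without control 3) and 0.079 when 1 array was left out. Hoxd12 stood at -0.061 with arrays centred, -0.041 without control 1, and -0.051 and -0.076 without shRNA arrays 2 and 3, in a range of -0.076 to 0.14 when 1 array was left out. Calls were lost 9 times, for Hoxb5 and Hoxc6, and gained 6 times, for Hoxa5, Hoxa10 and Hoxa11; the cause was not tested.

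With the replicate number as a replicate block, 9 Hox genes rose and 2 fell, Hoxb5 being the call lost, and 4 regulators fell in place of 5. Same-numbered arrays deviated together with correlations of -0.13, -0.062 and 0.031, and control 1 correlated best with shRNA array 2 (0.14). Deviations from a mean of 3 arrays balance out within each group, so these values cannot tell whether the numbers pair the samples. Subtracting an assumed offset of 16 left 9 and 3. Low signals over an unmeasured background limit Hoxc6, Hoxc10, Hoxd12 and Hoxd13 most.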
